A study of Drosophila melanogaster with 2 samples.

Results

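The structural cuticle protein genes of Drosophila melanogaster were described here for binding by Arrowhead (Awh), a LIM-homeodomain transcription factor needed for the abdominal histoblasts and the imaginal cells of the salivary gland. Members were chosen by symbol alone. They are the protein-coding genes named Cpr, Lcp or Ccp with a map position or number, those named Acp65, and every Twdl gene, which gives 118 of 13945 protein-coding genes. The families hold 70 Cpr genes, 25 Twdl genes, 15 Lcp genes, 7 Ccp genes and 1 Acp65 gene. Of 4781 bound regions in the authors' conservative list, 16 had the start of one of these genes as the nearest protein-coding transcript start. The descriptions in RefSeq fit the symbols: 70 members are described as cuticular proteins, 25 as Tweedle proteins, 6 as larval cuticle proteins and 1 as an adult cuticle protein, and 16 carry no description.

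The study has 1 group, embryos of 0 to 24 h of flies carrying an Awh-eGFP transgene, used whole, and all embryos of both replicates carry that transgene. Fragments of 200 to 800 bp made by sonication were immunoprecipitated with an antibody to GFP, although another field of the labels names Awh as the antibody target. The 2 samples are biological replicates from separate biosamples. Control libraries were not analysed here, so no group was set against another and no test was possible. A whole embryo mixes many cell types, and binding in few cells cannot be told apart from weak binding in many. The tagged protein comes from a transgene, and the cells in which it was made are not given in the labels.

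Insect cuticle is a layered material of chitin fibres and proteins that the epidermis secretes at the end of embryogenesis and again at each molt. Most of its structural proteins belong to the CPR family, many of whose genes are named Cpr, Lcp, Ccp or Acp in the fly. Proteins of that family carry the Rebers and Riddiford consensus, a stretch that binds chitin. Tweedle proteins are a separate insect family of cuticle proteins, and dominant mutations in TwdlD make larvae and pupae short and squat. Genes of both kinds arose by tandem duplication and lie in clusters of short genes.

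The DNA at the centres of 9 of the 16 regions is given first, since these are the sequences under the peaks. The regions shown are the 3 of highest signal, the 3 within 500 bp of the start of their gene, and the others in which TAATTA or ATGCAAAT lies within 70 bp of the summit, the base of highest signal. TAATTA is the core bound by many homeodomain proteins, and ATGCAAAT is the octamer bound by POU-domain proteins. Each sequence is the plus strand of the Release 6 assembly (dm6) from RefSeq, 70 bp on either side of the summit. Capitals mark TAATTA, and ATGCAAAT on either strand.
Cpr76Ba (chr3L:19516649-19516789): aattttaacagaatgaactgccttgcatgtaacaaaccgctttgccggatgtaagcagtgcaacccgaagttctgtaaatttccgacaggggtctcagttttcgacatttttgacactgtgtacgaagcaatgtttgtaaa
Cpr35B (chr2L:14422754-14422894): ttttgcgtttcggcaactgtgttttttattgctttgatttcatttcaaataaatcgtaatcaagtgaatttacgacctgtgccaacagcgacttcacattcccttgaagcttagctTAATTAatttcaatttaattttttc
TwdlM (chr3R:26594306-26594446): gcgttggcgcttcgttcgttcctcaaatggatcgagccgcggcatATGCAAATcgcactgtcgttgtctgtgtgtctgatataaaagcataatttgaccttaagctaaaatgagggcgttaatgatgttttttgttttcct
TwdlQ (chr3R:26693914-26694054): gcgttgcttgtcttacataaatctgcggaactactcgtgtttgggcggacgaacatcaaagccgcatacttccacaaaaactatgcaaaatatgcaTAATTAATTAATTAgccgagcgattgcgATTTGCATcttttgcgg
Cpr78Ca (chr3L:21291159-21291299): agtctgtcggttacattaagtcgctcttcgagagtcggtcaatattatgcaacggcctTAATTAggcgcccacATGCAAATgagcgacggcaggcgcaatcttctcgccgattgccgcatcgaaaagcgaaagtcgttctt
Cpr67Fb (chr3L:10893357-10893497): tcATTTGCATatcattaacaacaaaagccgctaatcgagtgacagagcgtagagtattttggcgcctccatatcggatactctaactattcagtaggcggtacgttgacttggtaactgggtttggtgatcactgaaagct
TwdlD (chr3R:26639599-26639739): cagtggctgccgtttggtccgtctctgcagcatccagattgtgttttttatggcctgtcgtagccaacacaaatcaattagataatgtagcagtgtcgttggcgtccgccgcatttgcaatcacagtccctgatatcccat
Cpr65Av (chr3L:6140289-6140429): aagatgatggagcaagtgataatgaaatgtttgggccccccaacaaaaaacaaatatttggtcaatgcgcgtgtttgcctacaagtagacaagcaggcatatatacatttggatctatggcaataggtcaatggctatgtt
TwdlH (chr3R:26633091-26633231): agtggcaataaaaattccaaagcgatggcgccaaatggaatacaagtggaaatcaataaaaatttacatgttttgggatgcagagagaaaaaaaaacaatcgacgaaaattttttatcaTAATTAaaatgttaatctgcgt

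TAATTA stands in 4 of these windows, 12 bp before the summit at Cpr78Ca, and after it at 26 to 39 bp in 3 overlapping copies at TwdlQ, at 46 bp at Cpr35B and at 49 bp at TwdlH. The octamer lies 3 bp after the summit at Cpr78Ca, 25 bp before it at TwdlM, and on the minus strand 54 bp after it at TwdlQ and 68 bp before it at Cpr67Fb. Cpr78Ca and TwdlQ have both words, and Cpr76Ba, TwdlD and Cpr65Av have neither. These words are matches of letters only, and none was shown to be a bound site.

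At least 1 region was assigned to 12 of the 118 cuticle protein genes, or 10.2% (95% Wilson interval 5.91 to 16.9), beside 20.5% of all protein-coding genes (2862 of 13945). The genes were 8 of the Cpr family (Cpr35B, Cpr62Ba, Cpr64Ad, Cpr65Av, Cpr65Eb, Cpr67Fb, Cpr76Ba and Cpr78Ca) and 4 of the Twdl family (TwdlD, TwdlH, TwdlM and TwdlQ). Of these, 10 had 1 region, TwdlM had 2 and Cpr35B had 4. None of the 15 Lcp genes, the 7 Ccp genes or the 1 Acp65 gene had a region. A count of 0 allows a share of up to 20.4% of the Lcp genes and up to 35.4% of the Ccp genes (upper Wilson limits). The share was 11.4% in the Cpr family (5.91 to 21) and 16% in the Twdl family (6.40 to 34.7), intervals that overlap. The intervals count genes as if each were independent, and neighbours in a tandem cluster are not.

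**Figure D1:**
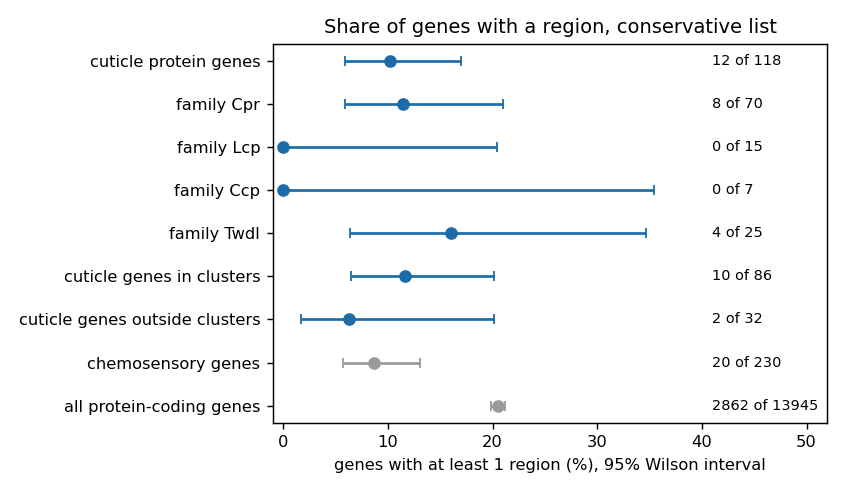
Share of genes with at least 1 region in the conservative list (x axis, percent), with 95% Wilson intervals as bars. Cuticle protein genes, their families and their positions in or outside clusters are in blue, and chemosensory genes and all protein-coding genes in grey; the share over all cuticle protein genes, 10.2%, lies below the 20.5% of all genes, and the Lcp and Ccp families are at 0.

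Cuticle protein genes are short and closely spaced, and the part of gene spacing in their share of genes with a region was not tested. The stretch of DNA nearest to each member's start had a median length of 2762 bp, beside 4328 bp over all genes, and the median gene length was 970 bp, beside 2166 bp. Per megabase of such DNA, cuticle protein genes had 29.2 regions (95% Poisson interval 16.7 to 47.4), and all genes had 35.3 (34.3 to 36.3). The rate over all genes lies inside the interval of the cuticle protein genes. Among genes with under 2 kb of such DNA, 1 of 39 members had a region (2.56%), beside 8.54% of all genes of that class. With 2 to 5 kb it was 4 of 41 members (9.76%), beside 14.1%, and with 5 to 20 kb it was 6 of 37 members (16.2%), beside 26.0%. In each of these size classes the members' rate per megabase was below that of all genes of the class, with 17.0 (0.43 to 94.6) beside 65.8 under 2 kb, 33.2 (9.05 to 85.1) beside 46.4 at 2 to 5 kb, and 26.3 (12.0 to 49.9) beside 39.5 at 5 to 20 kb. Each interval holds the rate over all genes of its class. The remaining member, TwdlM, has over 20 kb and had a region, as did 46.4% of all genes of that size. Chemosensory genes (receptors and odorant-binding proteins), another group of tandem families, had a region at 20 of 230 genes (8.70%) and 14.9 regions per megabase (9.95 to 21.3).

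The 16 regions were of middling strength. Their signal, the authors' value for each peak, had a median of 110.5 and ran between 62.6 and 210.4, beside a median of 105.1 over all 4781 regions, whose strongest reached 1644. In the replicates' own ranked lists the median was 49.2 in replicate 1 and 63.6 in replicate 2, beside 52.5 and 53.3 over all regions. Within each list, 5 of the 16 regions were above the median of all regions in replicate 1 and 11 of the 16 in replicate 2. The signals of the replicates were not rescaled here and their scaling is not recorded, so each is read against the other regions of its own list. Of the 16 regions, 8 (50%) overlapped a region in both thresholded replicate lists, beside 43.3% of all regions. Another 2 were in that of replicate 1 alone, 3 in that of replicate 2 alone, and 3 (18.8%) in neither, beside 26.8%. All 16 were 330 bp wide with the summit at the centre, a shape shared by 82.5% of all regions.

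**Figure D2:**
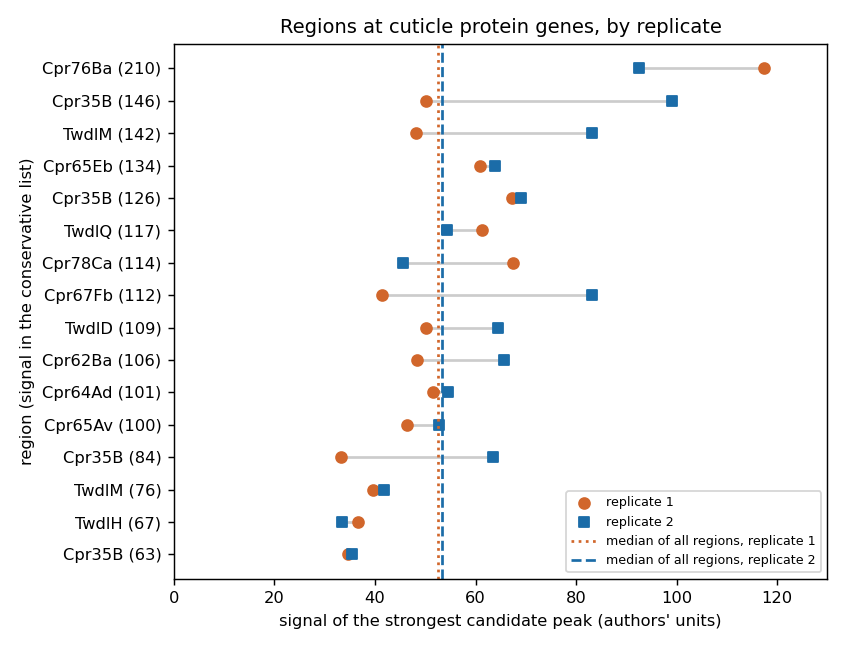
Signal of the strongest candidate peak in replicate 1 (circles) and replicate 2 (squares) at each of the 16 regions, in the authors' units, ordered by signal in the conservative list (in brackets). The vertical lines are the medians over all 4781 regions, 52.5 in replicate 1 and 53.3 in replicate 2. Cpr76Ba, with 117.3 and 92.5, lies above both lines; 5 of the circles and 11 of the squares lie above the line of their own replicate, and the replicates' scales were not matched.

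The strongest region lay at Cpr76Ba, a CPR gene at the end of a cluster of 4, at chr3L:19516554-19516883. Its signal was 210.4, rank 665 of 4781, with 117.3 in replicate 1 and 92.5 in replicate 2. The summit was 1613 bp downstream of the start and 833 bp past the end of the gene, in intergenic DNA. The other genes of the cluster, Cpr76Bb, Cpr76Bc and Cpr76Bd, had none.

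Cpr35B, a CPR gene that lies outside the clusters, was the member with most regions. A region of signal 146.5 at chr2L:14422659-14422988 (50.1 in replicate 1 and 99.2 in replicate 2) had its summit 2365 bp downstream of the start. A second, of signal 126.5 at chr2L:14432977-14433306 (67.2 in replicate 1 and 69.1 in replicate 2), lay 7953 bp upstream, where a noncoding gene, lncRNA:CR44732, starts nearer, at 2320 bp. The weaker pair, of signal 84.1 and 62.6, lay 2801 and 1430 bp downstream of the start. All 3 downstream regions were past the end of the gene, at 556 to 1927 bp, and the next coding start, that of Pburs, was 5057 to 6428 bp from the summits. The weakest of the 4 was in neither replicate list, and the one of signal 84.1 was in that of replicate 2 alone.

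The Tweedle genes gave 5 regions. TwdlM, the first gene of the largest Tweedle cluster, was the nearest coding start to a region of signal 142.1 at chr3R:26594211-26594540 (48.2 in replicate 1 and 83.2 in replicate 2). That summit lay 24742 bp upstream, within an intron of scrib, a cell polarity gene whose own start was 25763 bp away, so the assignment rests on a difference of about 1 kb between 2 distant starts. A weaker region of TwdlM, of signal 75.8 (39.5 in replicate 1 and 41.9 in replicate 2), lay 3576 bp upstream of its start. This weaker region was in neither replicate list.

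TwdlQ, which lies apart from the clusters, had a region at its promoter, at chr3R:26693819-26694148, with the summit 394 bp upstream of the start. Its signal was 117.0, with 61.2 in replicate 1 and 54.4 in replicate 2. TwdlD, the gene of the body shape mutants, had a region of signal 109.2 at chr3R:26639504-26639833, with 50.1 in replicate 1 and 64.4 in replicate 2. Its summit was 356 bp upstream of the start of TwdlD and 154 bp from that of a noncoding gene, lncRNA:CR46233. TwdlH had the weakest Tweedle region, of signal 67.0 (36.6 in replicate 1 and 33.3 in replicate 2), 571 bp upstream of the start and in neither replicate list.

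The other regions among the 10 of highest signal belonged to CPR genes of the third chromosome, all in small clusters. At Cpr65Eb the region chr3L:7090823-7091152 had a signal of 134.0, with 60.9 in replicate 1 and 63.8 in replicate 2. This region was not in the thresholded list of replicate 2. It stood between 2 members: its summit was 2201 bp upstream of the start of Cpr65Eb and 2216 bp from that of Cpr65Ec, so it could as well be credited to either. At Cpr78Ca the region chr3L:21291064-21291393 had a signal of 113.6, with 67.5 in replicate 1 and 45.6 in replicate 2, and lay 1571 bp downstream of the start and 631 bp past the end of the gene. The summit at Cpr67Fb was upstream of its gene, by 746 bp, in the region chr3L:10893262-10893591, whose signal was 111.7, with 41.5 in replicate 1 and 83.2 in replicate 2. Replicate 1 did not hold that region in its thresholded list. At Cpr62Ba the region chr3L:1823448-1823777 had a signal of 106.3, with 48.4 in replicate 1 and 65.7 in replicate 2. That region was not in the thresholded list of replicate 1, and lay 5329 bp downstream of the start and 516 bp past the end of the gene.

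Of the regions of Cpr64Ad and Cpr65Av, both under the median of the 16, the first lay in an intron of CG43367, 4658 bp downstream of the start of Cpr64Ad. Its signal was 101.3, with 51.6 in replicate 1 and 54.6 in replicate 2, and the region was not in the thresholded list of replicate 2. The region of Cpr65Av, in the midst of the Lcp65 cluster, was at the promoter, 385 bp upstream of the start. Its signal was 99.6, with 46.4 in replicate 1 and 52.7 in replicate 2.

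Most of the regions stood in the DNA between genes rather than at starts. Intergenic summits made up 11 of 16 (68.8%, 44.4 to 85.8), beside 21.7% of all regions, and summits in an intron 2 of 16 (12.5%), both in an intron of a gene that is no member, beside 43.5%. Promoter summits, within 500 bp of a start, were 3 of 16 (18.8%, 6.59 to 43.0), beside 32.1% of all regions. Counted by gene, 3 of the 118 members (2.54%) had a region within 500 bp of a start, beside 10.6% of all protein-coding genes. None of the 16 summits was within 300 bp of a start (upper limit 19.4%), beside 26.8% of all regions, and 8 of 16 (50%) were over 1000 and up to 5000 bp away, beside 29.8%. Upstream of the start lay 9 summits and downstream 7, and all 7 were past the end of the gene. All 4 regions of Cpr35B are among the 11 intergenic ones. Of these, 3 are also among the 7 downstream and the 8 at 1000 to 5000 bp. The intervals count regions as if each were independent, and regions of 1 gene need not be. Members are short, with a median gene length of 970 bp beside 2166 bp over all genes, which leaves little room for a summit within one. The part of gene length in the intron, intergenic and downstream counts was not tested. For 4 regions the nearest start of any annotated transcript was that of a noncoding gene. The side of the start and the nearness of noncoding starts were not counted over all regions, so these counts have no share beside them.

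**Figure D3:**
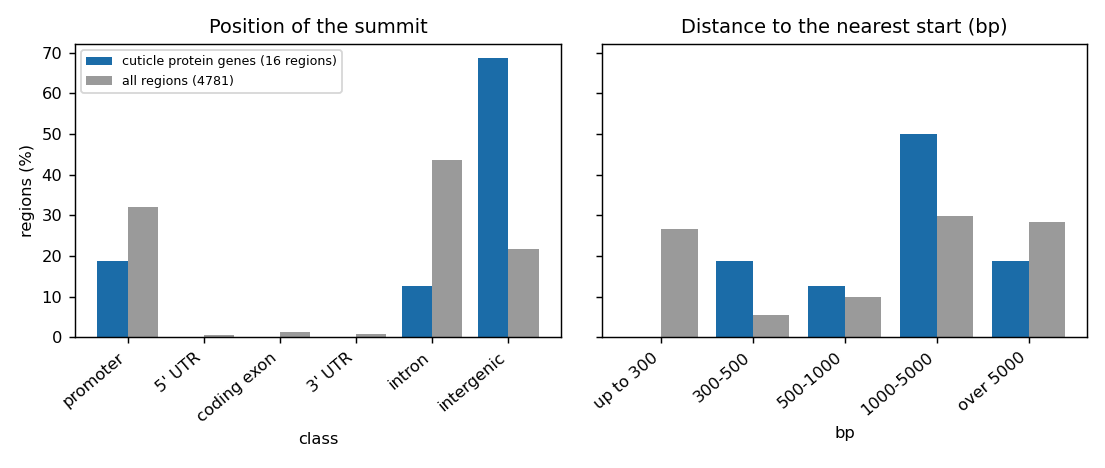
Share of summits (percent) by position class, left, and by distance to the nearest protein-coding transcript start in bp, right, for the 16 regions of cuticle protein genes (blue) and all 4781 regions (grey). Blue bars are tallest for intergenic DNA, at 68.8% beside 21.7%, and for 1000 to 5000 bp, at 50% beside 29.8%; no blue bar stands at up to 300 bp.

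Measured from the genes, the nearest summit of any region, whichever gene it was assigned to, lay at a median of 7861 bp from the starts of cuticle protein genes, beside 8663 bp over all genes and 20017 bp over chemosensory genes. Within 5000 bp of a summit were 39 of the 118 members (33.1%), beside 36.6% of all genes. At that distance the shares were close, while within 500 bp they were 2.54% and 13.6%.

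By the rule of starts at most 20 kb apart, 86 members fell into 15 clusters of 3 or more. A region was assigned to 10 of the 86 (11.6%, 6.44 to 20.1), and to 2 of the 32 members outside clusters (6.25%, 1.73 to 20.2). The order of these shares was the opposite in the lists of each replicate. With replicate 1 alone they were 8.14% in clusters and 15.6% outside, and with replicate 2 alone 9.30% and 12.5%. No difference between clustered and single genes can be read from these counts.

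Regions were assigned to members of 8 clusters. The TwdlM to TwdlD cluster, 12 Tweedle genes in 20.9 kb, had 4 regions at 3 members (TwdlM, TwdlH and TwdlD), and 9 members had none. The Lcp65Ag3 to Cpr65Az cluster, 18 genes in 29.8 kb with 10 Lcp65A genes, 7 Cpr65 genes and Acp65Aa among them, had 1, that of Cpr65Av. Its genes encode larval and adult cuticle proteins of the CPR family. Another region within the span of this cluster, of signal 84.6, was nearest to CG13297, which is no member, and lay 799 bp from the start of Cpr65Ay. Each of 6 small clusters had 1 member with a region: Cpr62Ba to Cpr62Bc (3 genes), Cpr64Aa to Cpr64Ad (4), Cpr65Ea to Cpr65Ec (3), Cpr67Fa1 to Cpr67Fb (3), Cpr76Ba to Cpr76Bd (4) and Cpr78Ca to Cpr78Cc (3). In 5 of these 6 the member was the first or the last gene of the cluster along the chromosome, and in the cluster of Cpr65Eb it was the middle one. In clusters of 3 or 4 genes many members are end genes. The summits at Cpr62Ba, Cpr64Ad, Cpr76Ba and Cpr78Ca lay outside the spans of their clusters, where the nearest member is an end gene by the rule. No preference for end genes can be read from this count.

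**Figure D4:**
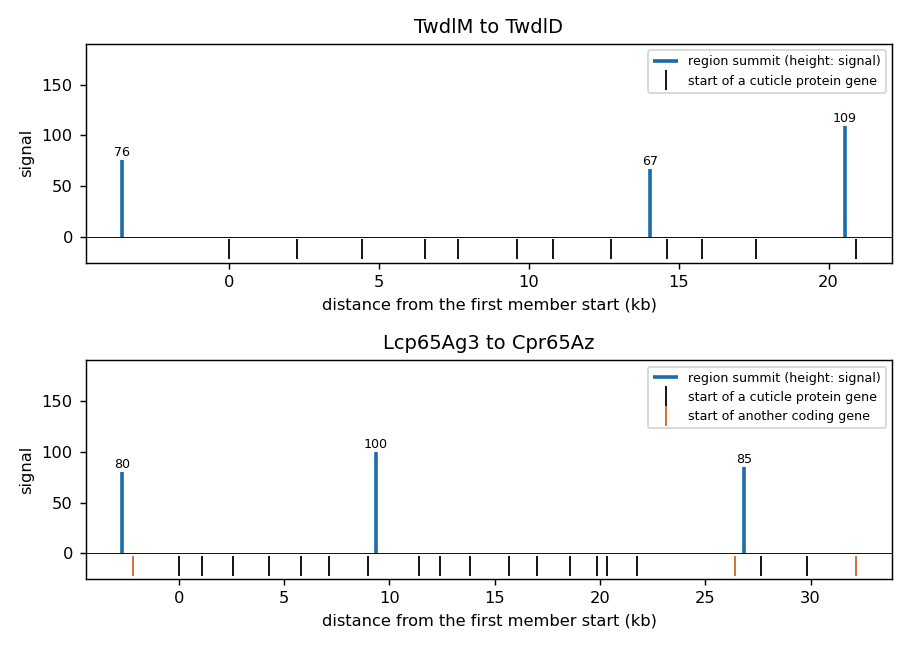
Maps of the Tweedle cluster (top) and the Lcp65 cluster (bottom), with starts of cuticle protein genes as black ticks, starts of other coding genes as orange ticks, and region summits as blue bars whose height is the signal; the x axis is the distance from the first member start in kb. In the Tweedle cluster the bars of 67.0 and 109.2 stand among the last starts, and the distant region of TwdlM is outside the map. In the Lcp65 cluster the bar of 99.6 is the only one nearest to a member start. The bar of 84.6 also stands within the cluster, and that of 79.7 before its first start, both nearest to other genes.

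The 7 clusters without a region held 36 members. They were Ccp84Ag to Ccp84Aa (7 genes), Cpr47Ea to Cpr47Eg (7), Cpr49Aa to Cpr49Ah (8), Cpr72Ea to Cpr72Ec (3), Lcp1 to Lcp4 (4), TwdlF to TwdlV (3) and TwdlX to Twdlalpha (4). The Ccp84 genes, a block of cuticle protein genes within the Antennapedia complex of homeotic genes, lay 21348 to 38704 bp from the nearest summit of any region. The Lcp1 to Lcp4 genes, which encode abundant larval cuticle proteins, lay 24922 to 31326 bp from one. In the Cpr47E and Cpr49A clusters a region lay within the cluster but nearest to another gene, to TpnC47D with a signal of 152.5 and to Or49a with a signal of 90.5. Over all 15 clusters, the spans held 8 summits in 210.5 kb, or 38.0 per megabase, beside 35.7 in the genome, and 9 spans held none.

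By chromosome arm, members with a region were 7 of 46 on 3L (15.2%), beside 22.8% of all genes of that arm, 4 of 31 on 3R (12.9%), beside 20.3%, and 1 of 6 on 2L (16.7%), beside 20.2%. None of the 8 on X had one, which allows up to 32.4%, beside 19.8%. None of the 27 on 2R had one, which allows up to 12.5%, beside 19.9%. Per megabase of the DNA nearest to their starts, a count of 0 on 2R allows up to 35.3 regions (upper Poisson limit). All genes of that arm had 34.7, so no lack on 2R can be read from the rate. Many of the 27 lie in the Lcp1 to Lcp4, Cpr47E and Cpr49A clusters and are not independent. In the list of replicate 1 alone, 1 gene of 2R, Cpr51A, had a region.

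Near-identical copies can lose reads that map to several places. Over the DNA within 500 bp of each start, 50-base words that recur elsewhere in the genome made up over 50% at 4 members, Lcp65Ab1 and Lcp65Ab2 with 84.4% each, Cpr65Ax1 with 73.6% and Cpr65Ax2 with 71.5%. None of these 4 had a region. Next came Lcp65Ag1 (39.0%), Lcp65Ag2 (36.1%), Lcp65Ag3 (35.6%) and Lcp65Aa (26.8%), also with no region. At 98 members the share was 0, and without the 4 genes over 50% 12 of 114 members had a region (10.5%). The sources used here do not give how reads that map to several places were treated.

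The other thresholded lists gave similar counts of members. The optimal list, the authors' broader combination of the replicates, gave 14 members (11.9%), beside 22.7% of all genes. Replicate 1 alone gave 12 (10.2%), beside 14.7%, and replicate 2 alone gave 12 (10.2%), beside 16.5%. The interval of both single-replicate shares, 5.91 to 16.9, holds the share of all genes. Per megabase, members had 23.73 regions beside 21.39 for all genes in replicate 1, the opposite order. In replicate 2 it was 25.55 beside 26.31, and in the optimal list 32.85 beside 40.86. Both replicate lists held 8 members in common (6.78%, beside 11.8% of all genes), Cpr35B, Cpr65Av, Cpr76Ba, Cpr78Ca, Cpr92A, TwdlD, TwdlM and TwdlQ. Replicate 1 alone held Cpr31A, Cpr51A, Cpr64Ad and Cpr65Eb (3.39%, beside 2.98%), and replicate 2 alone held Cpr62Ba, Cpr67Fb, Cpr73D and TwdlY (3.39%, beside 4.72%). In all, 17 members had a region in any of the 4 lists (14.4%, beside 24.8% of all genes) and 101 had none, among them every Lcp, Ccp and Acp65 gene.

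Some members had a region only outside the conservative list. Cpr31A had one in the optimal list, of signal 59.7 and 336 bp from its start, where the candidate peak of both replicates had a score of 450. TwdlY had one of signal 88.6, 1464 bp from its start, where that score was 718. Both scores are below the 830 that each peak of the thresholded lists reaches in its own list. Cpr92A had a region in both replicate lists, of signal 77.9 in replicate 1 and 98.2 in replicate 2, about 14 kb from its start. The candidate that overlaps it in the ranked list from both replicates had a signal of 180.1 but a score of 81. Cpr73D had a region of signal 35.5 at 85 bp from its start in replicate 2 alone, and that of Cpr51A in replicate 1 alone had a signal of 51.7 at 2207 bp.

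The ranked lists of all candidate peaks gave a value for members with no region as well. In replicate 1, 96 of the 118 members (81.4%) had a candidate with its summit within 500 bp of the start, beside 73.3% of all genes, and in replicate 2, 78 members (66.1%) had one, beside 69.4%. Where there was one, the strongest had a median signal of 16.7 in replicate 1 and 17.5 in replicate 2, beside 21.4 and 22.4 over all genes. A signal of at least 40 in both replicates was reached by 3 members (2.54%), TwdlQ, TwdlD and Cpr65Av, beside 1330 genes (9.54%). These are the genes with a promoter region. Cpr31A passed the limit in 1 replicate only, with 47.6 in replicate 1 and 20.8 in replicate 2. At 15 members (12.7%) neither replicate had a candidate, beside 15.6% of all genes. The families that lacked regions, Lcp, Ccp and Acp65, had medians of 15.7 in replicate 1 and 10.8 in replicate 2 where there was a candidate, and maxima of 33.2 at Lcp4 and 31.0 at Ccp84Ab.

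**Figure D5:**
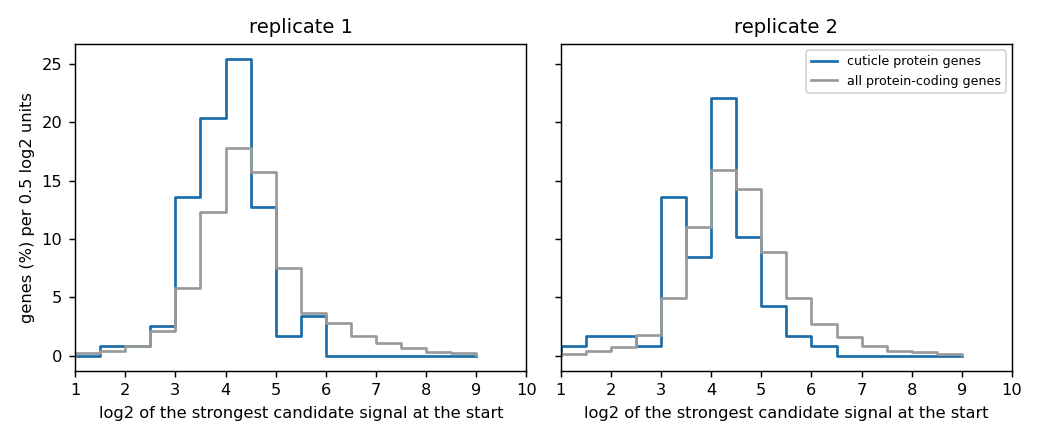
Distribution of the strongest candidate signal within 500 bp of the start (x axis, log2 of the authors' signal) in replicate 1 (left) and replicate 2 (right), for cuticle protein genes (blue) and all protein-coding genes (grey), as a percent of all genes of each kind per bin of 0.5. The blue line has no gene at the strongest signals, where the grey line runs on; the highest members are TwdlQ with 61.2 in replicate 1 and TwdlD with 64.4 in replicate 2. Genes with no candidate are not drawn.

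Short words were counted within 100 bp of the summits, on both strands. TAATTA was in 4 of 16 regions of cuticle protein genes (25%, 10.2 to 49.5), beside 19.7% of all regions; within 50 bp it was in 2 (12.5%), beside 13.7%, the opposite order. TATAAA, the TATA box, was in 2 (12.5%), beside 28.1%; GAGAG, the word of the GAGA factor, in 4 (25%), beside 26.4%; TGTTT in 12 (75%), beside 65.9%; and ACAGTG in 4 (25%), beside 16.1%. ACCGGT and TATCGATA were in none, beside 1.36% and 1.72%. In this list each share over all regions lay within the interval of the 16 regions. For TAATTA that did not hold in the lists of single replicates, where the share over all regions lay below the interval.

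ATGCAAAT and CAATTA were added after the printed sequences had been read, so their counts in the same regions are a description of what was noticed. The octamer ATGCAAAT was in 5 of 16 regions (31.3%, 14.2 to 55.6), beside 225 of 4781 regions (4.71%). The 5 were both regions of TwdlM and those of TwdlQ, Cpr78Ca and Cpr67Fb. Among intergenic summits it was 3 of 11 (27.3%), beside 4.73%. In windows 1000 bp to either side of the summits it was 2 of 32 (6.25%), beside 3.79%. At the gene starts themselves, over 250 bp before to 50 bp after, it was in 12 of the 118 members (10.2%, 5.91 to 16.9), beside 3.47% of all protein-coding genes. The word was thus also more frequent at cuticle protein gene starts, few of which had a region. That interval counts genes as if each were independent, and neighbours in a tandem cluster are not. CAATTA was in 4 of 16 regions (25%), beside 21.1%.

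Other genes of cuticle formation, from lists chosen by function but with earlier results of these data known, were set beside the structural proteins. Their shares are therefore a description and no support for a link to cuticle. The symbols rtl, Dat and svb of these lists matched no single protein-coding gene of the annotation and were left out. Of 18 genes of chitin synthesis and organisation, 5 had a region (27.8%): mmy, which makes the activated sugar that chitin is built of, with a signal of 71.1, and the chitin deacetylases serp (66.2), verm (348.4, the strongest of 3 regions), Cda4 (279.8) and Cda5 (60.5). Of 9 genes of tanning and pigment, speck, which encodes an N-acetyltransferase of arylalkylamines such as dopamine, alone had one (11.1%), with a signal of 109.1. Of 14 other structural genes, 4 had one (28.6%), the zona pellucida domain genes dy (78.1), mey (83.0), nyo (121.5) and pio (102.7, the strongest of 4 regions). The Wilson intervals were 12.5 to 50.9 for the chitin genes, 1.99 to 43.5 for tanning and 11.72 to 54.65 for the other structural genes. Each holds the 20.5% of all protein-coding genes, so these 3 shares do not stand apart from it. Per megabase the 3 lists had 27.4, 7.17 and 25.7 regions, beside 35.3 for all genes. Of 12 regulators of cuticle and epidermis, 10 had one (83.3%), with 48 regions in all: grh (Grainyhead, an activator of epidermal barrier genes), vvl, ftz-f1, Eip75B, Hr3, Hr4, EcR (the ecdysone receptor), Hr38, CrebA and sob. The strongest of these were at the nuclear receptor genes Hr3 (611.6) and Hr4 (425), and vvl, which encodes a POU-domain factor, had 9 regions, the strongest of 307.9. The DNA nearest to a regulator's start was long, with a median of 30225 bp, beside 2762 bp for the cuticle protein genes and 4328 bp over all genes. Per megabase of it the regulators had 98.3 regions (72.5 to 130.4), beside 29.2 for the cuticle protein genes and 35.3 for all genes, and of all genes with over 20 kb of such DNA 46.4% had a region.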

How the data were processed

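Awh-eGFP ChIP-seq of 2 biological replicates of whole embryos was used as lists of peaks on dm6, per the labels. The authors deposited for each peak a signal, described here within its own list and not rescaled between lists, and a score of up to 1000, which was at least 830 throughout the thresholded lists. The deposited peak positions and summits (other columns) were used as given. No source used here gives the aligner or the peak caller. No list carries read totals, and the depth is therefore unknown.

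Overlapping peaks on the 6 main chromosomes were merged, keeping the strongest summit, and each region was credited to the nearest protein-coding transcript start (Ensembl BDGP6; ties to each gene). A replicate's value at a region is its strongest ranked candidate overlapping by at least 1 bp. Named are all members with a region in the conservative list, the 10 strongest regions in full, all clusters, and the members of the other lists with a region. Members and lists were chosen with earlier results of these data known. With 1 group and 2 replicates no test was made. Intervals (95%, Wilson and exact Poisson) cover counting only. Scripts used Python 3.11.15, numpy 2.4.6, scipy 1.17.1 and matplotlib 3.10.9, and were tested on simulated data. Alternatives were other lists, single replicates, unmerged peaks, the stronger regions, all transcripts, distance limits, cluster gaps and word windows.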

Additional observations from a re-analysis of the deposited data

How the results depend on the processing

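Of 48 alternative values, 41 stayed near the reported value and 7 moved. Near means within 1.5 times for a count, within the SD of the replicates' medians for the signal, and within the 95% Wilson interval of the reported share (10.2% to 49.5%) for TAATTA. With only the stronger part of the list (regions at or above its median signal), 10 regions in place of 16 were assigned to cuticle protein genes, and their median signal was 121.8. The number of members with a promoter region was 0 at a limit of 250 bp and 5 at 1000 bp, against 3 at 500 bp. With either replicate left out, the median signal was 51.67 to 65.08, beside 71.35 and 64.51 over all regions of the same lists; the signals of single-replicate lists were not rescaled to the conservative list. The share with TAATTA was 50% within 200 bp, beside 29.2% of all regions. Within 50 bp it was 12.5% (2 of 16), beside 13.7%, which turns its order against all regions, and it was 33.3% to 46.2% in the optimal list and in those of single replicates. The number of members with a region was 9 to 14 in every alternative and 12 with either replicate left out. Their share was below that of all genes each time. In both single-replicate lists, however, the interval of that share (5.91 to 16.9) held the share of all genes, 14.7% in replicate 1 and 16.5% in replicate 2. No paired analysis was possible because the study has 1 group and no result comes from a test. With 16 regions, each share has a wide interval, and with no read totals the depth behind a count of 0 is unknown.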

Other observations

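Tubby (Tb), the gene of TwdlA, is a Tweedle gene under another symbol and so was no member by the symbol rule. It had 2 regions in the conservative list, of signal 113.4 (65.4 in replicate 1 and 51.7 in replicate 2) at 61 bp from its start and of signal 85.0 (32.1 in replicate 1 and 51.9 in replicate 2) at 711 bp. The first of these is nearer to a start than any of the 16 regions of cuticle protein genes. Tb lies on 3R, 16.4 kb from the nearest member start. Cpr, the cytochrome P450 reductase gene, is no member either, and had no region.

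The octamer ATGCAAAT held its share in the other lists, which overlap the conservative list in part and are not independent of it. It was in 5 of 18 regions of cuticle protein genes in the optimal list (27.8%), beside 4.85% of all, in 4 of 13 with replicate 1 alone (30.8%), beside 4.77%, and in 4 of 14 with replicate 2 alone (28.6%), beside 4.92%. Within 50 bp of the summit it was in 2 of 16 (12.5%), beside 2.49%, and within 200 bp in 6 of 16 (37.5%), beside 7.97%. In windows 1000 bp away, TAATTA was in 0 of 32 for cuticle protein genes, which allows up to 10.7% (upper Wilson limit), beside 12.8% for all regions. The octamer was chosen from these sequences, and its use by any factor was not tested.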
